A study of Mus musculus with 30 samples.

Results

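Odc1, Kap and Hsd17b11 are genes whose expression in mouse kidney is known to respond to androgens, the male sex hormones. They were selected on results of these same arrays, Odc1 for a lower level in both comparisons of the study, so their differences between groups are given as a description with no test. All probe sets that the array annotation assigned to them were taken: 1 for Odc1, 1 for Hsd17b11 and 2 for Kap, which made 4 of 13179 probe sets and 3 of 6136 genes named by a single symbol. All 4 probe sets passed the filter on low values, at least 5 of 15 arrays above a background floor, and all 4 lay above that floor on every array.

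Total RNA came from kidneys of C57BL/6 mice in 3 groups, control-fed at 5 months (young control), control-fed at 30 months (old control) and calorie-restricted at 30 months. Each group had 5 numbered kidneys, and each kidney was hybridised to 2 array types, A and B, which gave 30 samples. The labels name no transgene or mutation, do not state the sex of the mice or how strict the restriction was, and leave unsaid whether each number is an animal of its own, so the errors below measure the spread between these samples. The study asked about ageing, with old control minus young control kidneys, and about the diet, with calorie-restricted minus old control kidneys. The comparison of calorie-restricted with young kidneys was added here. Since the comparisons share groups, the values are given side by side.

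Androgens act through the androgen receptor, which binds DNA and changes the transcription of its targets, and in the mouse kidney much of this response lies in the proximal tubule. Odc1 encodes ornithine decarboxylase, which makes putrescine and so opens polyamine synthesis, and its induction by testosterone in mouse kidney is a textbook case. Kap encodes kidney androgen-regulated protein, an abundant proximal tubule transcript, and Hsd17b11 encodes a lipid droplet dehydrogenase of the 17-beta-hydroxysteroid family that can oxidise androgen metabolites.

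The promoter windows of the members are shown because they are the stretches at the start of each gene, where a shared androgen element could be looked for. Each holds the 250 bases before the start that the RefSeq promoter table gives for the gene, on its strand, 5' to 3', on assembly GRCm38.p6. For Odc1 that start lies downstream of the annotated gene start, so the end of its window is inside the gene. The windows lie at chr12:17544623-17544872 on the plus strand for Odc1, chr6:133853668-133853917 on the minus strand for Kap, and chr5:104021797-104022046 on the minus strand for Hsd17b11. Capitals mark the TATA box letters TATAAA.
Odc1: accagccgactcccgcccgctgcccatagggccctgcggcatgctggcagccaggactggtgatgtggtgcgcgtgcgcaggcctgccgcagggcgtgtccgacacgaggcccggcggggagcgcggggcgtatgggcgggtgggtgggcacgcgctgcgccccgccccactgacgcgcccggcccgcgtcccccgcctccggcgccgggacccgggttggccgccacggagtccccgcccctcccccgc
Kap: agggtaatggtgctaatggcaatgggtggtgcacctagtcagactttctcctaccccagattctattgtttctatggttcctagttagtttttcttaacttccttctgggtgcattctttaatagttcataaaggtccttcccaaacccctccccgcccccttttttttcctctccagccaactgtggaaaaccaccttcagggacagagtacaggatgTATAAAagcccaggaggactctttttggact
Hsd17b11: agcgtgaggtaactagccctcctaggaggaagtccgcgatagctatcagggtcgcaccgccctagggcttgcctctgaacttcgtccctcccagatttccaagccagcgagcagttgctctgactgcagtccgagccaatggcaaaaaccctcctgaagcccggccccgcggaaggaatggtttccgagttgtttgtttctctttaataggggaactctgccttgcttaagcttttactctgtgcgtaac

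The core hexamers of the androgen response element, AGAACA and its complement TGTTCT, were searched on both strands, and 0 of the 3 windows held either. Among 32851 mouse promoter windows of the same length, 16.1% held at least 1 of these hexamers, and 3 windows held both in order with 3 bases between them. A missing match says only that these letters are not in this window. The letters TATAAA stood once, in the Kap window, 31 bases before the gene start, against 7.59% of all windows that held them on the gene's strand. GC content was 80% in the Odc1 window, 45.6% in the Kap window and 54.8% in the Hsd17b11 window, beside a median of 52.4% over all windows. The genes themselves are annotated at chr12:17544808-17551502 (Odc1), chr6:133849855-133853667 (Kap) and chr5:103989765-104021796 (Hsd17b11) on GRCm38.p6.

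Values below are scaled intensities, the brightness of a probe set after each array was scaled to a common mean, and levels of different probe sets are not compared. Log2 differences were taken after values below the floor (1103 on type A, 1815 on type B) were set to it, and each comes with its SE from the limma fit of all 3 groups.

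Odc1 was highest in young kidneys, lower in old control kidneys and lowest in calorie-restricted kidneys, and the diet moved it further from the young level. The probe set s64539_s_at on array type A read 4901, 5905, 6148, 4813 and 5908 in young controls, numbers 1 to 5. The old controls read 2585, 3181, 3011, 2571 and 2183. The calorie-restricted kidneys read 1967, 1991, 1574, 1655 and 1407. No value of one group reached into another: the lowest young value stood above the highest old control value, and the lowest old control value above the highest calorie-restricted value. Odc1 was selected for these differences. The share of all tested probe sets without overlap between groups was not taken, here or for the genes below, so non-overlap is only a description.

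The group means of Odc1 were 5535 ± 627 (SD, n = 5), 2706 ± 395 and 1719 ± 254 in that order. The log2 difference was -1.04 ± 0.14 (SE) with age, a 2.05-fold lower level, and -0.66 ± 0.14 with the diet. Between calorie-restricted and young kidneys it was -1.69 ± 0.14. With the floor doubled, which lies above every calorie-restricted value of Odc1, the diet difference came to -0.29, so its size depends on the floor and its direction did not.

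**Figure D1:**
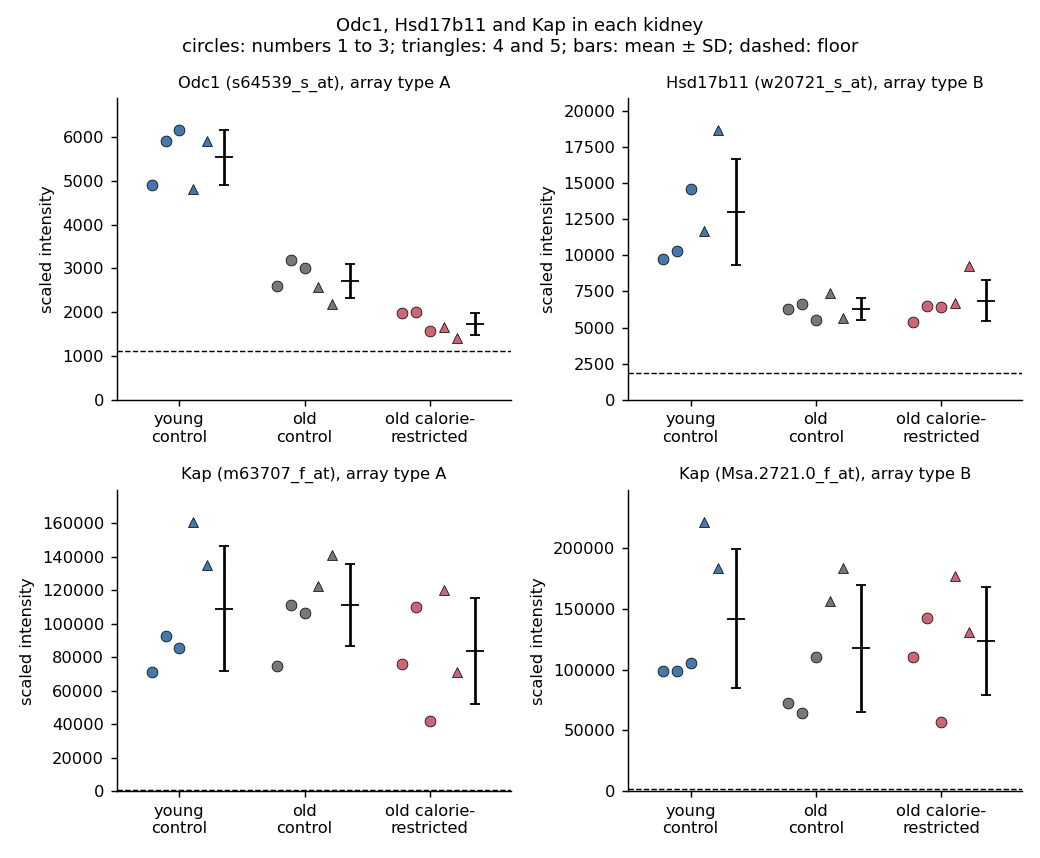
Scaled intensity (y axis) of Odc1, Hsd17b11 and the 2 Kap probe sets in each kidney, by group (x axis). Circles are numbers 1 to 3, triangles numbers 4 and 5, bars give mean ± SD (n = 5) and the dashed line is the floor. The 3 groups of Odc1 do not overlap, Hsd17b11 separates young from both old groups, and the Kap groups overlap.

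Hsd17b11 was about as low in calorie-restricted as in old control kidneys, and higher in young kidneys. The probe set w20721_s_at on array type B read 9779.9, 10312, 14603, 11672 and 18669 in young controls. Old controls read 6297, 6647, 5539, 7364 and 5647. Calorie-restricted kidneys read 5416, 6505, 6433, 6675 and 9288. Every young value stood above every value of the old groups, while the old groups overlapped.

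The log2 difference of Hsd17b11 was -1.01 ± 0.18 with age, 0.11 ± 0.18 with the diet and -0.90 ± 0.18 between calorie-restricted and young kidneys. Means were 13007 ± 3677 (SD, n = 5), 6299 ± 751 and 6864 ± 1442. Without calorie-restricted number 5, the highest of its group, the diet difference was -0.01. On array type B, rows of a class of probe sets were found exchanged on the young arrays and were left out. The Hsd17b11 probe set is not of that class, but the order of its row on the young arrays could not be checked.

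Kap did not separate the groups on either array type. The probe set m63707_f_at on type A read 71199.5, 92583, 85517, 160466 and 135209 in young controls. Old controls read 74921, 111071, 106290, 122460 and 140884. Calorie-restricted kidneys read 75949, 109900, 41962, 120165 and 71113. The ranges of the 3 groups overlapped, and numbers 4 and 5 were the highest of both control groups.

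On array type B the other Kap probe set read 98648, 98705, 105713, 220755 and 183524 in young controls. Old controls read 72268, 64396, 110424, 156152 and 182980. Calorie-restricted kidneys read 110397, 142561, 57044, 176741 and 131089. The ranges overlapped here too. Calorie-restricted number 3 was the lowest of all 15 kidneys on both array types.

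The Kap differences all lay within 2 SE of 0. On type A they were 0.06 ± 0.28 with age, -0.47 ± 0.28 with the diet and -0.41 ± 0.28 against young controls, and on type B -0.30 ± 0.35, 0.10 ± 0.35 and -0.20 ± 0.35. The probe sets thus differed in sign for both age and diet. Without calorie-restricted number 3 the diet difference on type A was -0.24. These errors leave room for changes of the size seen in Odc1 with the diet, so the values do not show that Kap stayed level.

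Kap differed between sample numbers within each group. The mean of numbers 4 and 5 stood above the mean of numbers 1 to 3 in every group, by 0.39 to 0.83 on the log2 scale on type A and by 0.66 to 1.08 on type B. The largest component of the deviations from the group means over all tested probe sets, 37.3% of their variance, also set numbers 1 to 3 apart from 4 and 5 in all 3 groups, and the labels do not say what the numbers record. Deviations of the 2 Kap probe sets correlated across the 15 kidneys with r = 0.87, a description over points that share the RNA of a kidney. The correlation was 0.80 in numbers 1 to 3 and 0.96 in numbers 4 and 5. For Odc1 the mean of numbers 4 and 5 minus that of numbers 1 to 3 was -0.30 to -0.08, and its group differences in numbers 1 to 3 and in 4 and 5 were -0.95 and -1.17 with age, -0.67 and -0.63 with the diet. For Hsd17b11 the age difference was -0.89 in numbers 1 to 3 and -1.19 in numbers 4 and 5, and its diet difference was -0.01 and 0.29.

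**Figure D2:**
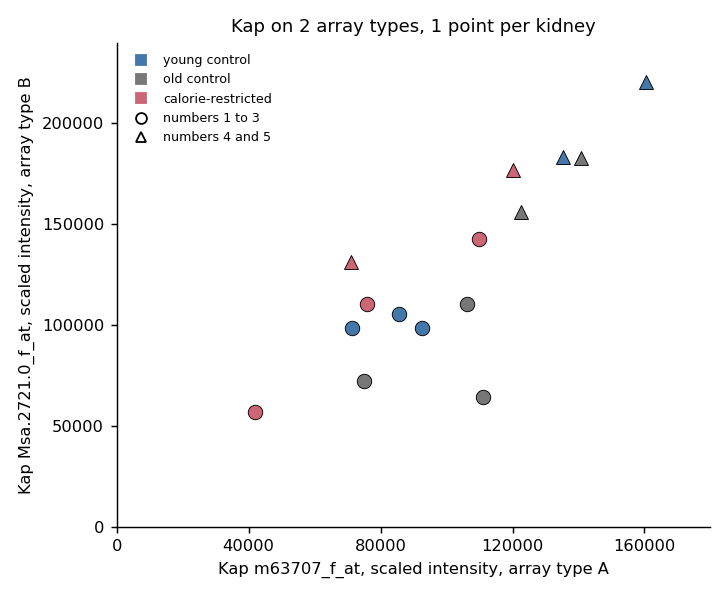
Scaled intensity of Kap on array type A (x axis) against type B (y axis), 1 point per kidney, coloured by group. Circles are numbers 1 to 3 and triangles numbers 4 and 5. The points rise together (r = 0.87 for deviations from group means), and on the y axis 5 of the 6 triangles lie above every circle, while the other, at 131089, lies below only the circle at 142561.

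Within groups, the members did not move together beyond what permutations gave. These deviations were not used to choose the genes, and Kap was taken from array type B, its brighter probe set. Over 3 pairs and 15 kidneys, Pearson's r was -0.29 for Odc1 and Kap (rho -0.32), with p = 0.335 and an adjusted p of 0.658 from a two-sided permutation test with Benjamini-Hochberg adjustment. Odc1 and Hsd17b11 had r = -0.04 (rho 0.04, permutation p = 0.879, adjusted 0.879), and Kap and Hsd17b11 r = 0.22 (rho 0.14, permutation p = 0.439, adjusted 0.658). Permutation p-values for rho were 0.300, 0.902 and 0.632.

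Each of these correlations changed sign in at least 1 of the number sets. Odc1 and Kap had r = 0.57 in numbers 1 to 3 (exact permutation p = 0.282, 9 kidneys) and -0.13 in numbers 4 and 5 (exact p = 1, 6 kidneys). Kap and Hsd17b11 had r = -0.19 (exact p = 0.528) and -0.93 (exact p = 0.25). That is the lowest p the test can give in numbers 4 and 5, since swapping the 2 kidneys of every group only flips the sign of r. Odc1 and Hsd17b11 had r = 0.26 (exact p = 0.597) and 0.44 (exact p = 0.75). Without the 2 kidneys farthest from the median of the first gene, r was -0.25, 0.29 and -0.07 for Odc1 with Kap, Kap with Hsd17b11 and Odc1 with Hsd17b11. With the set as a term, r was 0.39 for Odc1 and Kap (rho 0.29, permutation p = 0.178 and 0.330). It was -0.38 for Kap and Hsd17b11 (rho -0.47, permutation p = 0.117 and 0.0499) and 0.36 for Odc1 and Hsd17b11 (rho 0.41, permutation p = 0.244 and 0.165). The adjusted permutation p for r was 0.244 in all 3 cases. No Pearson correlation passed in all kidneys, in numbers 1 to 3 or with the set as a term, and in numbers 4 and 5 none could pass. The single p below 0.05 is the unadjusted one for rho of Kap and Hsd17b11.

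The other androgen-responsive genes were taken from a list of 20 genes described as raised by androgens or higher in male mouse kidney. Of these, 11 were named on the arrays and all 11 were tested, 8 of them besides the members. Of the 8, 1 fell with age and 0 rose, 0 passed with the diet, and 2 were lower and 0 higher in calorie-restricted than in young kidneys. Over all 4433 tested probe sets, 3.38% passed with age, 2.53% with the diet and 3.81% between calorie-restricted and young kidneys, by limma with Benjamini-Hochberg adjustment at 0.05. At an unadjusted limma p of 0.05 the counts among the 8 were 3 lower with age, 0 with the diet and 3 lower against young kidneys. The shares above are for adjusted p and cannot be set beside these counts. No share of all tested probe sets at an unadjusted p was taken, here or for the lists below. The median log2 difference of the 8 was -0.38, -0.22 and -0.35 in the 3 comparisons, beside -0.04, 0.03 and -0.01 over all tested probe sets, and 6, 5 and 7 of the 8 were below 0. The share of all tested probe sets below 0 was not taken, here or for the lists below.

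Slc22a30, an organic anion transporter family gene, had the pattern nearest to Odc1 in this list. It read 6769, 7189.6, 7177, 5739 and 8016 in young controls. Old controls read 4148, 3059, 4010.1, 3191 and 3145. Calorie-restricted kidneys read 4676, 3641, 972.8, 1539 and 2027. All young values lay above all values of the old groups, while numbers 1 and 2 of the calorie-restricted group lay within or above the old control range and numbers 3 to 5 below it.

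Slc22a30 was lower in calorie-restricted than in young kidneys, with a log2 difference of -1.62 ± 0.30 (limma adjusted p = 0.00489, 5 of 5 below all young values). The age difference of -0.995 ± 0.300 missed the threshold (adjusted p = 0.0901), and the diet difference was -0.62 ± 0.30 (adjusted p = 0.345). The age difference passed when calorie-restricted number 1 (adjusted p = 0.0372) or number 3 (0.0328) was left out, which changed only the pooled spread, and also with only the old and young controls fitted (0.00268), with the floor doubled (0.00656) and with the asinh transform (0.0376), which were 5 of 29 alternatives. Within numbers 1 to 3 alone the difference from young controls was -1.41 and within 4 and 5 alone -1.94, with limma adjusted p of 0.102 and 0.0560.

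Cyp7b1, an oxysterol 7-alpha-hydroxylase that also acts on androgen metabolites, fell with age. Young controls read 3519, 3142, 2561, 1068 and 2129, with number 4 below the floor. Old controls read 1223, 1391, 546.1, 695.5 and 973.9, with only numbers 1 and 2 above the floor. Calorie-restricted kidneys read 316.9, 428.9, 86.8, 176.8 and 234.1, all below it.

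The floored difference of Cyp7b1 with age was -0.97 ± 0.23 (limma adjusted p = 0.0260). Against young controls, calorie-restricted kidneys were at least 2.10-fold lower (adjusted p = 0.0144), and for the diet -0.10 ± 0.23 (adjusted p = 0.881) is only a bound, since the lower group lies at the floor. The age call was lost in 6 of 15 fits that left out a kidney (young numbers 1, 2 and 3 and old control numbers 3, 4 and 5), with values of -0.95 to -0.82 and adjusted p of 0.0604 to 0.0801. It was also lost within numbers 4 and 5, at -0.47 (adjusted p = 0.532), and in 9 of 27 alternatives in all.

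**Figure D3:**
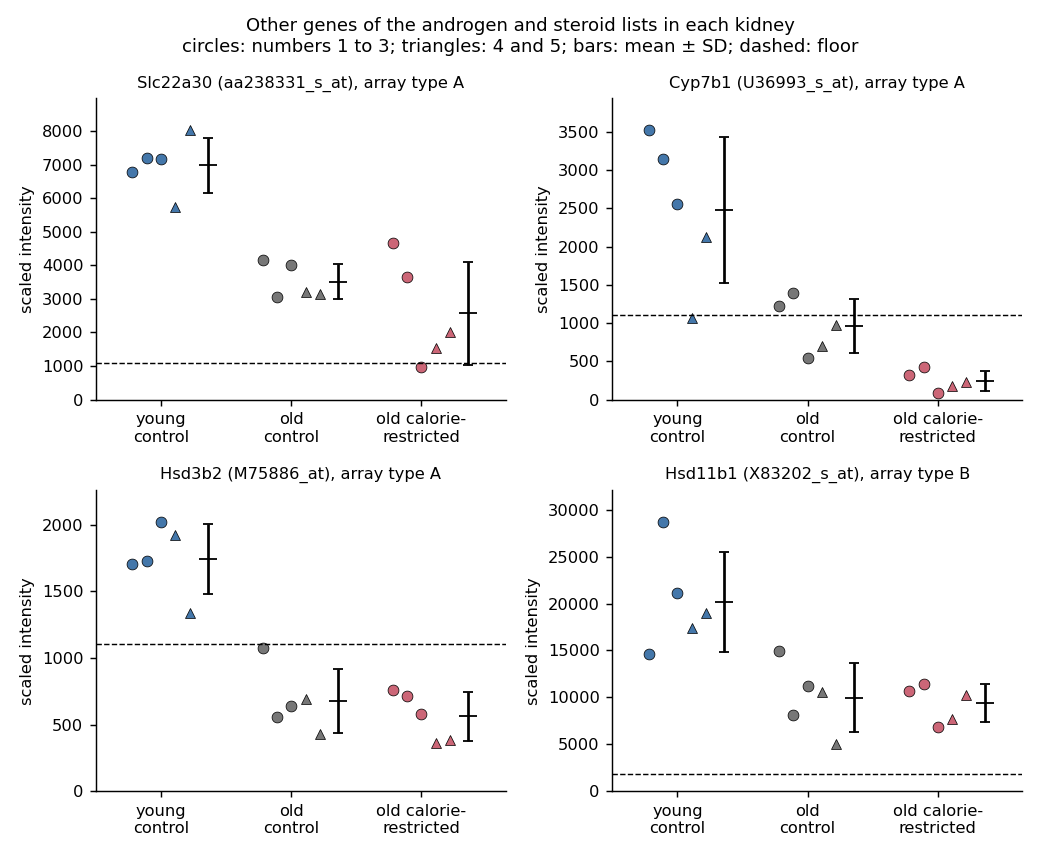
Scaled intensity (y axis) of Slc22a30, Cyp7b1, Hsd3b2 and Hsd11b1 in each kidney, by group (x axis), with circles for numbers 1 to 3, triangles for 4 and 5, bars for mean ± SD (n = 5) and a dashed line at the floor. Cyp7b1 lies below the floor in all 5 calorie-restricted kidneys and Hsd3b2 in all 10 kidneys of the old groups.

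The remaining 6 genes of the list did not pass in any comparison. Adh1, an alcohol dehydrogenase, averaged 31110.5, 24615 and 19173 in young, old control and calorie-restricted kidneys, with log2 differences of -0.30 ± 0.24, -0.35 ± 0.24 and -0.65 ± 0.24 (age, diet and calorie-restricted against young). With the number set as a term its last difference passed (limma adjusted p = 0.00954). Cyp2e1, a P450 enzyme of small solvents, gave -0.66 ± 0.31, 0.25 ± 0.31 and -0.40 ± 0.31. Its age difference was -0.99 in numbers 1 to 3, where it passed alone (limma adjusted p = 0.0390), and -0.16 in numbers 4 and 5.

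Cyp2d9, a P450 enzyme that hydroxylates testosterone in male mice, gave -0.47 ± 0.19, 0.20 ± 0.19 and -0.27 ± 0.19. Cyp4b1, a P450 enzyme known as androgen-dependent in mouse kidney, gave 0.17 ± 0.19, -0.37 ± 0.19 and -0.21 ± 0.19. Gusb, beta-glucuronidase, a lysosomal enzyme classically induced by androgens in mouse kidney, gave 0.06 ± 0.26, -0.35 ± 0.26 and -0.29 ± 0.26, with 9 of 15 arrays above the floor. Timd2, a cell surface receptor, gave -0.10 ± 0.20, 0.18 ± 0.20 and 0.09 ± 0.20.

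**Figure D4:**
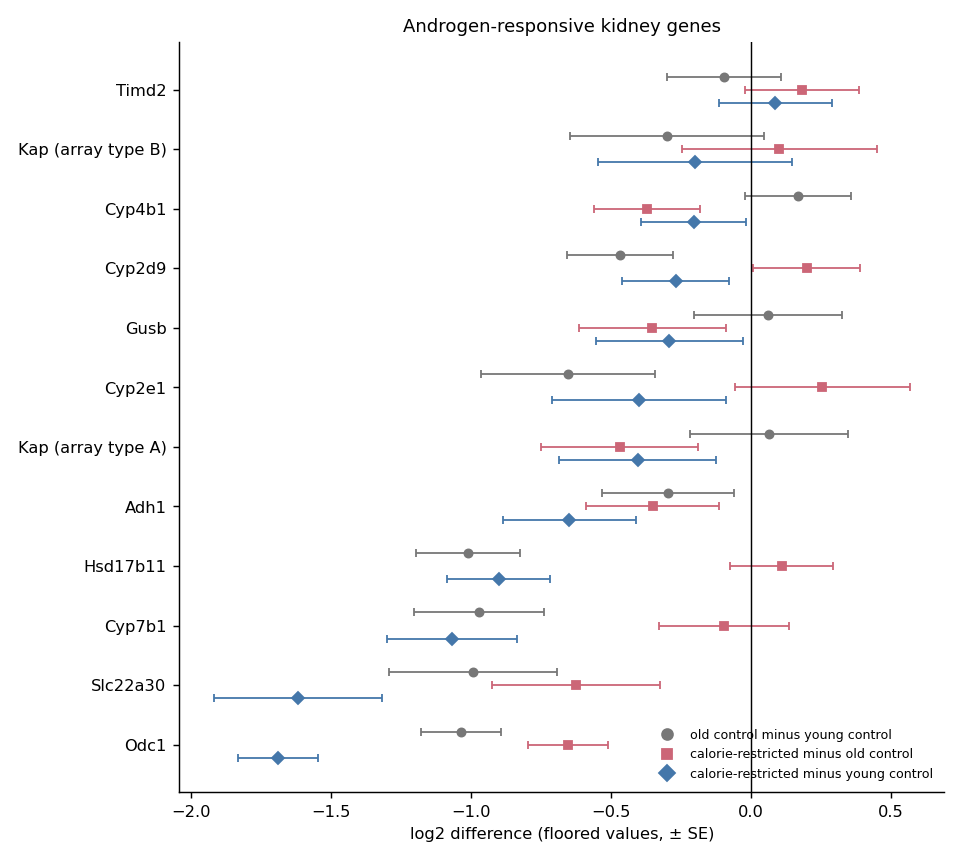
Log2 difference ± SE (x axis) of each tested gene of the androgen list (y axis) in the 3 comparisons: old against young control (grey circles), calorie-restricted against old control (red squares) and calorie-restricted against young control (blue diamonds). Odc1 (-1.69) and Slc22a30 (-1.62) have the lowest values against young controls, and all values of Timd2 lie within 1 SE of 0.

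Odc1, selected for its differences, had the lowest log2 difference of the tested polyamine genes in each comparison. Of 22 polyamine genes listed, 15 were on the arrays and 10 tested, and of the 9 besides Odc1, each read by its brightest tested probe set, 0 passed in any comparison by limma. At an unadjusted p of 0.05, 3 were lower with age, 1 was higher with the diet and 1 was lower against young kidneys. Their median log2 differences were -0.44 with age, 0.14 with the diet and -0.25 against young controls, beside -0.04, 0.03 and -0.01 over all tested probe sets. With age 7 of 9 lay below 0 and with the diet 7 of 9 above 0, the same signs as the medians over all tested probe sets. A difference between Odc1 and these genes was not tested.

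The antizymes Oaz1 and Oaz2, which bind ornithine decarboxylase and target it for breakdown, gave -0.44 ± 0.18 and -0.63 ± 0.22 with age and 0.14 ± 0.18 and 0.13 ± 0.22 with the diet. For Oaz1 the probe sets disagreed: the brightest is on type B, and the 2 on type A gave -0.14 ± 0.16 and -0.28 ± 0.23 with the diet. One of these, AA267482_f_at, was lower in calorie-restricted than in young kidneys (-0.59 ± 0.16, limma adjusted p = 0.0479), and the other (-0.77 ± 0.23, adjusted p = 0.0693) missed the threshold. Srm, spermidine synthase, gave -0.15 ± 0.15 with age and 0.32 ± 0.15 with the diet, and its other probe set 0.18 ± 0.18 and 0.48 ± 0.18. Sat1, which acetylates polyamines for export, gave -0.47 ± 0.30 and -0.14 ± 0.30. Oat, which uses ornithine for another path, gave 0.07 ± 0.20 and 0.32 ± 0.20.

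Ahcy, which clears S-adenosylhomocysteine, gave -0.44 ± 0.16 with age and 0.52 ± 0.16 with the diet. Eif5a and Dohh, the factor modified with spermidine and an enzyme of that modification, gave -0.51 ± 0.27 and 0.06 ± 0.18 with age and 0.18 ± 0.27 and -0.31 ± 0.18 with the diet. Slc3a2, a subunit of amino acid transporters, gave -0.02 ± 0.14 and 0.10 ± 0.14, and its other probe set 0.15 ± 0.25 and 0.04 ± 0.25. The counts of 7 of 9 thus rest partly on the probe set chosen for Oaz1, Srm and Slc3a2. Arg1, Arg2, Azin1, Dhps and Slc7a1 were on the arrays and did not pass the filter.

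**Figure D5:**
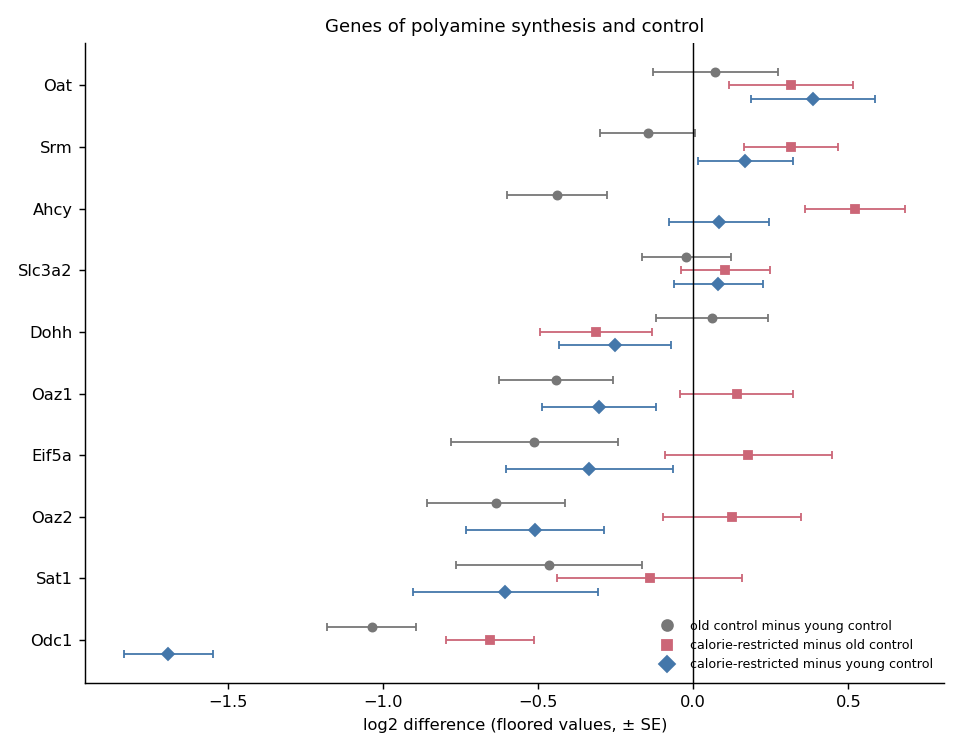
Log2 difference ± SE (x axis) of the brightest probe set of each tested gene of polyamine synthesis and control (y axis), in the same 3 comparisons and symbols as for the androgen list. Odc1 has the lowest value in each comparison, and of the other 9 genes 7 lie below 0 with age and 7 above 0 with the diet. The medians over all tested probe sets were -0.04 and 0.03.

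Among steroid enzymes, several genes besides Hsd17b11 were lower in both old groups. Of 23 listed genes 12 were on the arrays and 9 tested. Of the 8 besides Hsd17b11, 3 fell with age, 0 passed with the diet (1 was higher and 0 lower at an unadjusted p of 0.05) and 3 were lower in calorie-restricted than in young kidneys. These were Cyp7b1, Hsd11b1 and Hsd3b2 in both cases. Hsd3b2 passed the filter only through its young values, so it could be called only as lower. The median of the 8 was -0.36 with age, -0.01 with the diet and -0.42 against young controls.

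Hsd11b1, which regenerates active glucocorticoid, read 14677, 28645, 21166, 17388 and 18973 in young controls. Old controls read 14936, 8104, 11242, 10568 and 5021. Calorie-restricted kidneys read 10740.4, 11433, 6859.5, 7722 and 10286.5. Old control number 1 overlapped the young range and no calorie-restricted kidney did.

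The log2 difference of Hsd11b1 was -1.07 ± 0.26 with age (limma adjusted p = 0.0285, 4 of 5 old controls below all young values) and -1.09 ± 0.26 against young controls (adjusted p = 0.0225). The age call was lost in 5 of 15 fits without a kidney (young numbers 2, 3 and 5, old control numbers 2 and 5), at -1.08 to -0.84 and adjusted p of 0.0574 to 0.0842. The other call was lost in 4 (young numbers 2 and 3, calorie-restricted numbers 3 and 4), at -1.06 to -0.96 and adjusted p of 0.0590 to 0.0747. Over all 29 alternatives the age call was lost in 9 and the other in 7. As for Hsd17b11, the row of Hsd11b1 on the young arrays of type B could not be checked. No such check is given either for the type B probe sets of Dnaja1, Cyp4a14, Cyp4a10 and Acadm, named below.

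Hsd3b2, a 3-beta-hydroxysteroid dehydrogenase, read 1336 to 2017 in young controls (median 1729) and 433.4 to 1071 in old controls, with 362.6 to 763.4 in calorie-restricted kidneys. All 10 kidneys of the old groups lay below the floor, so the level was at least 1.56-fold lower with age (limma adjusted p = 0.00347) and at least 1.56-fold lower against young controls (adjusted p = 0.00440). The probe set passed the filter only through the 5 young kidneys. A call could thus only be a lower level in the old groups, and these p-values add no support for that direction. Hsd17b4, a peroxisomal enzyme, gave -0.09 ± 0.15 with age and 0.51 ± 0.15 with the diet, and Hsd11b2, which inactivates glucocorticoid, -0.18 ± 0.34 and -0.01 ± 0.34; neither passed.

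The androgen receptor gene itself was not found by symbol among the named probe sets. Of 17 genes of its chaperones and coregulators, 11 were on the arrays and 6 tested, and 1 passed. Dnaja1, a co-chaperone, was lower in calorie-restricted than in young kidneys (log2 difference -0.89 ± 0.24, limma adjusted p = 0.0457), a call lost in 8 of 15 fits that left out a kidney (young numbers 1, 2, 3 and 5, calorie-restricted numbers 1 to 4), at -0.96 to -0.75 and adjusted p of 0.0560 to 0.126. Over all 29 alternatives the call was lost in 12. Hsp90aa1 (0.04 ± 0.14 with age, -0.11 ± 0.14 with the diet) and Fkbp4 (-0.11 ± 0.24 and 0.11 ± 0.24), which hold steroid receptors ready for hormone, did not pass, nor did Hspa8 (0.10 ± 0.14 and -0.09 ± 0.14, with -0.05 ± 0.18 and 0.10 ± 0.18 on its other probe set).

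Genes known as androgen targets in other organs gave 1 call among 5 tested of 14 listed. Ndrg1, a stress and differentiation gene, was higher in calorie-restricted than in young kidneys by 1.27 ± 0.23 (limma adjusted p = 0.00440). Fkbp5, a co-chaperone raised by several steroid hormones, gave 0.17 ± 0.18 with age and -0.60 ± 0.18 with the diet (adjusted p = 0.103). Tmprss2, a membrane protease, gave -0.20 ± 0.16 and 0.39 ± 0.16, and Maf, a transcription factor, -0.06 ± 0.26 with the diet, with 0.05 ± 0.41 and 0.42 ± 0.32 on its other probe sets.

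Of 7 genes known to be higher in female mouse kidney, 3 were on the arrays and 2 tested. Cyp4a14, a fatty acid omega-hydroxylase that is also a target of the fatty acid sensor PPAR alpha, rose with the diet by 1.64 ± 0.41 (limma adjusted p = 0.0453) and against young controls by 2.60 ± 0.41 (adjusted p = 0.00170). The diet call was lost in 10 of 15 fits without a kidney (young number 2, old control numbers 1, 3, 4 and 5, and each calorie-restricted number), at 1.51 to 1.78 and adjusted p of 0.0519 to 0.118. Over all 29 alternatives it was lost in 15. Of 8 tested PPAR alpha targets besides Hsd17b11, which is also on that list, 5 were higher in calorie-restricted than in young kidneys. These were Cyp4a14, Cyp4a10 (1.63 ± 0.25), Vnn1 (1.67 ± 0.26), Angptl4 (1.55 ± 0.26) and Plin2 (0.90 ± 0.19). Vnn1, a pantetheinase, also rose with age (1.02 ± 0.26), a call lost in 7 of 15 fits without a kidney (adjusted p of 0.0580 to 0.110) and with a replicate block (0.0579). Over all 29 alternatives that call was lost in 15. Acadm, an acyl-CoA dehydrogenase, fell with age on both of its probe sets. The brighter gave -0.67 ± 0.18 (limma adjusted p = 0.0481), a call lost in 12 of 15 fits without a kidney (0.0507 to 0.128) and with a replicate block (0.0627). Over all 29 alternatives that call was lost in 20. The other probe set gave -0.60 ± 0.12 (limma adjusted p = 0.00838), with all old controls below all young.

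Markers of the proximal tubule, where Kap is made, overlapped between the groups. The summed level of the proximal tubule markers on the arrays (Slc34a1, Cubn, Slc22a6 and Aqp1, 4 of 9 listed) ranged from 90097 to 103428 in young controls, from 83439.6 to 107723 in old controls and from 90987 to 100956 in calorie-restricted kidneys. Slc34a1, the phosphate transporter of that segment, gave -0.05 ± 0.12 with age and -0.02 ± 0.12 with the diet. Of the 5 tested genes of the longer proximal tubule list besides Kap, 1 passed: Fbp1, a gluconeogenic enzyme, was lower in calorie-restricted than in young kidneys (-0.64 ± 0.14, limma adjusted p = 0.0166). In whole kidney RNA, fewer cells of a type and less RNA per cell cannot be told apart.

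Of 8 tested genes of later nephron segments, 2 fell with age, Klk1 (-1.01 ± 0.19) and Calb1 (-0.67 ± 0.17), and 1 rose with the diet, Egf (0.45 ± 0.11). The Calb1 and Egf calls were each lost in 7 of 15 fits that left out a kidney (adjusted p up to 0.0911 and 0.0938), and the Calb1 call also with a replicate block (0.0551). Over all 29 alternatives the Calb1 call was lost in 14 and the Egf call in 13.

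Most leukocyte markers moved with the groups, while Ptprc passed in no comparison (0.22 ± 0.16 with age and -0.0007 ± 0.16 with the diet). Ptprc averaged 9013, 10437 and 10423 in young, old control and calorie-restricted kidneys, and Igha 1751, 41012 and 9440. The summed level of Ptprc, Cd74, Ctss, Lyz2 and Igha (5 of 5) ranged from 18657 to 24547 in young controls, from 78485 to 103029 in old controls and from 29184 to 51636 in calorie-restricted kidneys. Of 11 leukocyte genes tested, 9 rose with age and 8 fell with the diet, and their part in the member differences was not tested. Of 8 adrenal genes listed, 5 were on the arrays and 3 tested. Nr5a1, listed here as an adrenal marker, ranged over 2862 to 4067, 3011 to 5929.5 and 2908 to 4053 in the 3 groups on type A. Its other probe set, on type B, lay above the floor on 0 of 15 arrays, so the probe sets disagreed. Star and Cyp11a1 did not pass the filter. Fdx1, a ferredoxin of steroid and other P450 enzymes, fell with age (-0.89 ± 0.18, limma adjusted p = 0.00671, all old controls below all young), and Mc2r, the corticotropin receptor, gave -0.06 ± 0.16. The fat markers Adipoq and Fabp4 summed to 7328 to 11783, 6151 to 14821 and 3844 to 13959. Lpl, lipoprotein lipase and the third tested gene of the fat list, fell with age (-0.92 ± 0.17, limma adjusted p = 0.00401) and was lower in calorie-restricted than in young kidneys (-1.21 ± 0.17, adjusted p = 0.000654), with no overlap in either. The part of these genes in the member differences was not tested. The brighter Hba-a1 probe set, of blood, read 20854 to 45610.1, 36515 to 70540.3 and 20467 to 56934. Xist, expressed from an inactive X chromosome, and the Y-linked Kdm5d were above the floor on 0 of 15 arrays each, so they give no measured sex for these mice.

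The genes whose log2 values were most like those of each member over the 15 kidneys are named as a description, since they share the group differences, the RNA and, within an array type, the array. For Odc1 they were Amacr (r = 0.92), a racemase of branched fatty acids and bile acid intermediates, Fhl1 (0.90), Slc22a30 (0.87), C1qtnf3 (0.87) and Idi1 (0.87), an enzyme of isoprenoid synthesis. Amacr averaged 9051, 4325 and 3816 in young, old control and calorie-restricted kidneys, and C1qtnf3 3388, 1424 and 860.2. All 5 had negative differences with age and with the diet. Their choice by likeness to Odc1 over all groups favours such signs, so these add no support. Idi1 averaged 666.4 in old control and 603.2 in calorie-restricted kidneys, below the floor. The C1qtnf3 mean in calorie-restricted kidneys lay below it too.

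For Kap on type A they were Krt1 (0.88), Ctdsp2 (0.85), Ms4a1 (0.83), Slc38a5 (0.80) and Fabp3 (0.79), and on type B Vamp8 (0.94), Serf2 (0.89), Ssu72 (0.88), Farsb (0.87) and Syt8 (0.87). The 2 Kap probe sets had no gene in common among these. For Hsd17b11 they were Mettl26 (0.87), H2bc1 (0.86), Ndufv2 (0.85), a respiratory chain subunit, Cycs (0.84), cytochrome c, and Calml4 (0.84). Cycs averaged 48146, 27919 and 25776 in the 3 groups.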

How the data were processed

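Intensities were used as the authors deposited them, whole numbers per probe set on a linear scale that can be negative after background subtraction (20.8% to 26.6% of the values of an array on type A, 29.2% to 35.9% on type B). The software behind them is not given in the sources used here. The sample titles gave each array its group and number, and the arrays of types A and B with the same group and number were treated as 1 kidney.

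Each array was scaled to its table's common mean after trimming 2% at each end (factors 0.997 to 1.01), floored at the root mean square of its table's values below 0 and put on the log2 scale. Probe sets above the floor on at least 5 of 15 arrays were tested, 2609 on type A and 1824 on type B. Left out were 110 control probe sets, 77 rows blank on some arrays, and 85 otherwise testable probe sets of type B whose rows were exchanged on young arrays, as earlier work on these data had shown. Array annotation named 7561 probe sets by 1 symbol, 224 by several (not named here) and 5394 by none, and 7544 symbols were brought up to date through gene numbers in a RefSeq table (GRCm38.p6).

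A single fit of the 3 groups used limma 3.58.1 with its lmFit and eBayes functions in R 4.3.3, and p-values were adjusted by Benjamini-Hochberg across the tables at a threshold of 0.05. Each gene list was counted by its brightest tested probe set. The genes open to naming were the members, every tested gene of the androgen list, genes of the other lists that passed or were among their 4 brightest, and the 5 genes most like each member. Members and lists were chosen with earlier results of these data known. The script was tested on simulated data. Pairs of members were compared with 100000 permutations within groups. Figures were drawn with matplotlib 3.10.9. Alternatives were other normalizations, floors, filters, transforms and moderation, number sets, a replicate block and leaving out each kidney. Between young and old controls all 5 same-number pairs correlated in their deviations from the group means (r of 0.22 to 0.50). Of the 5 young kidneys, 0 matched their own number best among old controls, and the number sets were not separated from such pairing. The values thus do not show that the numbers pair these samples, and the main fit used no pairing.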

Additional observations from a re-analysis of the deposited data

Results flagged for a closer look

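In groups of 5, the highest or lowest kidney was set against the nearest of the others, and chance marks about 1 group in 20. Of 36 groups of the androgen list probe sets, 2 were marked, both of Cyp4b1. Old control number 5 read 85448 where the next highest was 65497. Calorie-restricted number 2 read 63996 where the next highest was 51880.3. No group of Odc1, Kap or Hsd17b11 was marked.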

How the results depend on the processing

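Over 29 alternatives, 344 of 348 member differences moved by less than the spread between kidneys, but many of them could not move. Filters, moderation, a halved floor, the exchanged class, a replicate block and the number set as a term leave each member difference as it is. So do a fit of only the groups compared and leaving out a kidney of the group outside a comparison. All differences of Odc1 and those of Hsd17b11 from young controls kept their direction. Small differences changed sign: Kap with age on type A (-0.17 to 0.22), Kap on type B with the diet (-0.15 to 0.36) and against young controls (-0.40 to 0.05), and Hsd17b11 with the diet (-0.01 to 0.29). The 4 values that moved further were the Odc1 diet difference, -0.29 with the floor doubled and -0.45 with the asinh transform, and its difference between calorie-restricted and young kidneys, -1.32 and -1.34. Without each kidney in turn the Odc1 difference was -1.10 to -0.96 with age and -0.73 to -0.59 with the diet. The number of probe sets past the threshold was 150 with age, 112 with the diet and 169 between calorie-restricted and young kidneys. With age it was 253 with the number set as a term, 85 within numbers 1 to 3, 49 within numbers 4 and 5, and 233 with the exchanged class kept. With the diet it was 50 with a filter of 10 arrays, 67 with no filter, 71 with only the groups compared, 217 with the set as a term, 240 within numbers 1 to 3, 9 within numbers 4 and 5, and 70 to 129 without each kidney. Against young controls it was 107 with no filter, 341 with the set as a term, 13 within numbers 4 and 5, 258 with the exchanged class kept, and 110 to 184 without each kidney. The causes were not tested.

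For the diet, 3 of 5 same-number correlations of deviations were above 0.1 (-0.01 to 0.40), and between calorie-restricted and young kidneys 4 of 5 were (0.07 to 0.41), so the numbers were not taken to pair those samples. The best match was the same number in 2 of the 15 comparisons of a kidney with another group. With a replicate block the counts were 174, 161 and 244. Every group holds the same 5 numbers, so the block could change the errors but not the differences. The Odc1 differences of -1.04, -0.66 and -1.69 are thus not checked by it. With age the block ended the calls of Vnn1, Acadm and Calb1 and changed no other age call among the named list genes. The number of arrays limits the precision, and near the floor differences are understated.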
